A study of Bos taurus with 12 samples.

Results

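The acyltransferases of triglyceride assembly were followed in mammary gland biopsies of Holstein cows before and during feed restriction. The 7 genes, GPAM, GPAT4 (formerly AGPAT6), AGPAT1, AGPAT2, AGPAT3, DGAT1 and DGAT2, were picked for the reactions their enzymes carry out. Their probes were found through the RefSeq transcript that the array files give for each probe. They had 17 probes among 43653 on the array, where 12787 genes could be given a symbol. Of these 17 probes, 11 passed the test's filter on dim signals (well above background on every array of at least 1 group), and all 11 were well above background on all 12 arrays. They covered 6 of the 7 genes. The other 6 probes, all 3 of DGAT2, 2 of AGPAT3 and 1 of DGAT1, were too dim to be tested and are described by their levels.

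RNA came from 6 multiparous Holstein cows in midlactation, each biopsied in both periods, and each RNA sample was run on 1 one-colour array. In the control period (CONT, 6 arrays) the cows ate a lactation diet ad libitum and were biopsied on day 0, and in the restriction period (REST, 6 arrays) the same cows received 50% of their net energy requirement and were biopsied on day 6, at the rear of the udder on alternating sides. None of these arrays came from cows kept on full feed to day 6, so restriction, elapsed time and the second biopsy cannot be told apart. The labels name 6 cows, the series description counts 5, and the methods tell of 1 Holstein cow withdrawn for mastitis without saying which, so the members' results were also computed without each cow.

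Milk fat is almost entirely triglyceride, built in the endoplasmic reticulum of the secretory epithelial cell by adding fatty acids to glycerol 3-phosphate. A glycerol-3-phosphate acyltransferase adds the first and an acylglycerol-phosphate acyltransferase the next, which gives phosphatidic acid. After a phosphatase has removed the phosphate, a diacylglycerol acyltransferase adds the last fatty acid, the only step committed to triglyceride. Mice without Dgat1 fail to lactate, mice without Gpat4 make milk poor in fat, and DGAT1 is best known in cattle for a protein variant that changes milk fat content.

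Among the acyltransferases, DGAT1 and GPAT4 were lower during restriction, and no member probe rose in the fit with the cow as a block. With another background correction (normexp) 1 member probe was called higher, that of AGPAT2 (0.39, adjusted p = 0.056, limma), and 1 lower, of DGAT1. The 2 tested probes of DGAT1 fell by 0.27 and 0.30 on the log2 scale and were lower in all 6 cows. One of the 2 probes of GPAT4 fell by 0.35 and was lower in 5 of 6 cows. GPAM, AGPAT1, AGPAT2 and AGPAT3 did not pass the test. With the cow as a block and a Benjamini-Hochberg adjusted p under 0.1 in limma, 3 of 11 member probes were called, all lower, beside 16% of the 19406 probes tested on the array, 8.62% called lower and 7.36% called higher. Without the cow as a block, 0 of 11 member probes were called, beside 4.28% of all probes and 2.68% called lower. At an unadjusted p under 0.05 (limma), 5 of the 11 member probes passed with the block, among them that of AGPAT2, which was higher. In the same fit 5335 of all 19406 tested probes passed. Without the block 1 member probe passed. The median change of the 11 member probes was -0.19, beside 0.004 over all tested probes. The ranges of CONT and REST overlapped for each member probe. Separate ranges were rare on the whole array too, where 1.48% of all tested probes lay wholly lower in REST and 0.783% wholly higher.

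**Figure D1:**
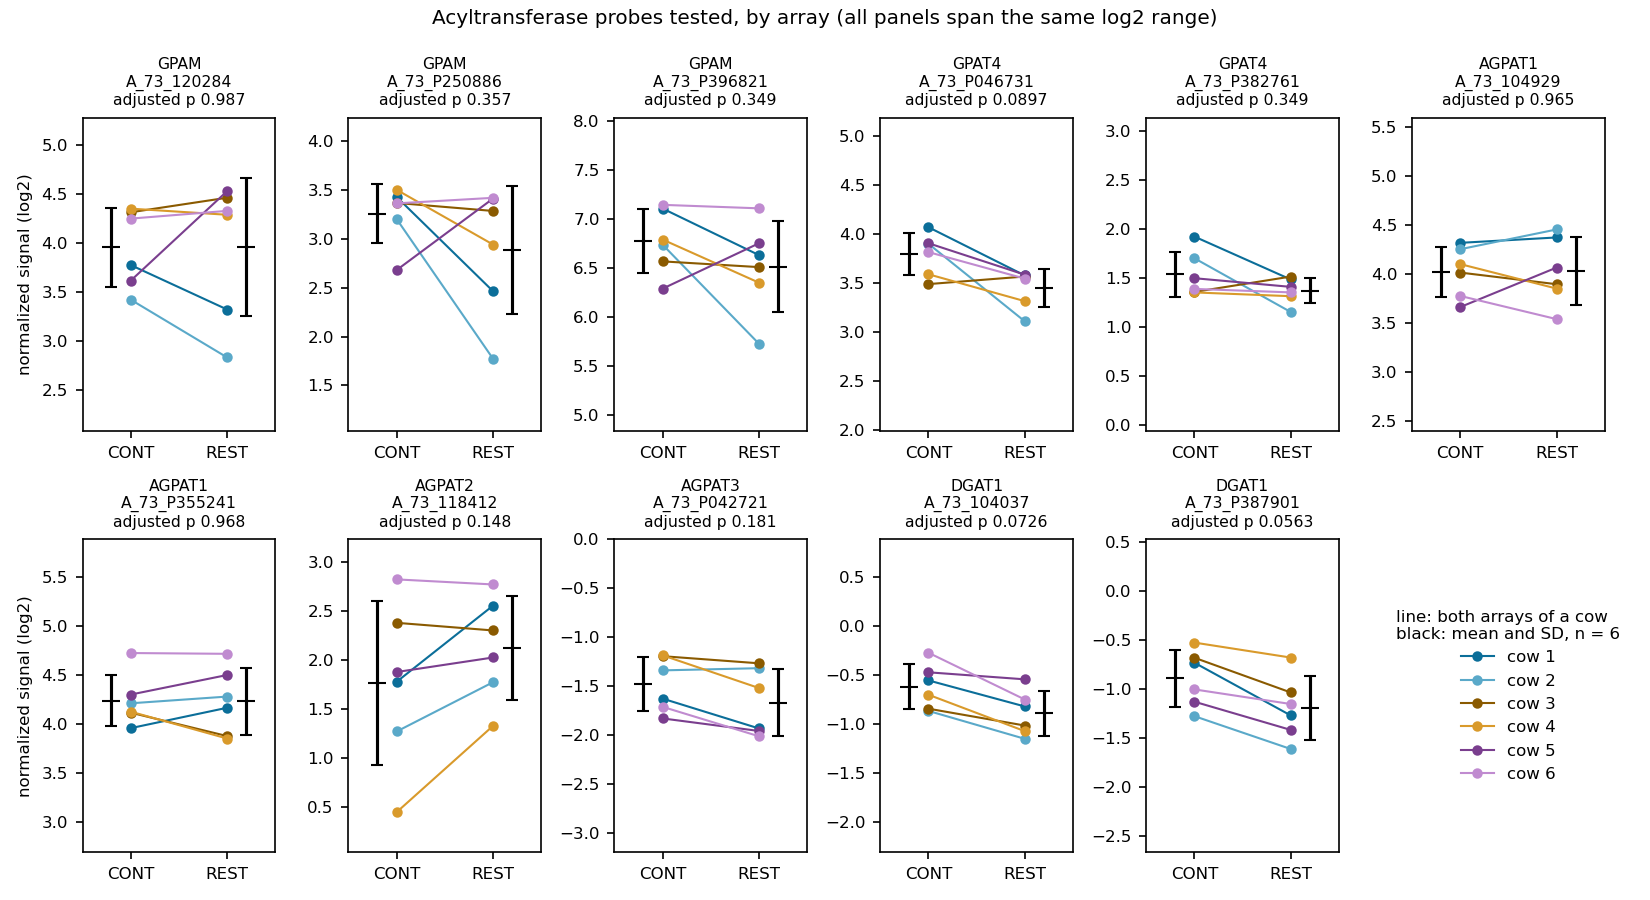
Normalized signal (log2 processed signal minus the 75th percentile of the array) of the 11 tested probes of 6 acyltransferase genes, with a line joining the CONT and REST arrays of each of 6 cows and the mean and SD of each period in black (n = 6). Every panel spans the same number of log2 units, and the lines of both DGAT1 probes slope down in all 6 cows, while those of GPAM fan out, from much lower in REST for cow 2 to higher in REST for cow 5.

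The first acyl group is added by 2 of the members. GPAM encodes the enzyme of the outer mitochondrial membrane, and none of its 3 probes passed the test. Levels are given throughout as normalized signals, in log2 units relative to the 75th percentile of the array, so a negative level lies below that percentile, and levels of different probes cannot be set against each other. On its brightest probe (A_73_P396821) the lowest, median and highest levels were 6.29, 6.76 and 7.14 in CONT and 5.73, 6.57 and 7.11 in REST. The periods overlapped over most of their range. The change, REST minus CONT, was -0.26 (SE 0.17, 95% interval -0.64 to 0.12, adjusted p = 0.349, limma), with lower signal in 5 of 6 cows. The 2 other GPAM probes gave changes of -0.37 (SE 0.25, adjusted p = 0.357, lower in 4 of 6 cows) and 0.01 (adjusted p = 0.987, lower in 3 of 6 cows).

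Cows 2 and 5 stood at opposite ends on all 3 GPAM probes. In cow 2 the changes were -1.01 on the brightest probe, -1.43 on A_73_P250886 and -0.59 on A_73_120284, the lowest of the 6 cows on each. In cow 5 they were 0.46, 0.73 and 0.91, the highest on each. The slide follows the cows here, since cows 1 and 2 were on slide 1, cows 3 and 4 on slide 2 and cows 5 and 6 on slide 3, where the arrays were dimmer. The mean change of A_73_P250886 was -1.20 on slide 1, -0.32 on slide 2 and 0.39 on slide 3, and that of the brightest probe was -0.74, -0.25 and 0.21. With slide 3 left out, the change of the brightest probe was -0.50 (adjusted p = 0.131, limma), and with cow 2 left out it was -0.11 (adjusted p = 0.712). The part of the slide in this spread was not tested.

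GPAT4 encodes the glycerol-3-phosphate acyltransferase of the endoplasmic reticulum. On the brighter of its 2 probes (A_73_P046731) the lowest, median and highest levels were 3.49, 3.86 and 4.07 in CONT and 3.11, 3.55 and 3.58 in REST. In REST 4 cows lay between 3.54 and 3.58, near the lower end of CONT, and cows 4 and 2 lay lower still, at 3.31 and 3.11. The mean fell from 3.79 ± 0.22 to 3.45 ± 0.20 (SD, n = 6), a change of -0.35 (SE 0.11, 95% interval -0.60 to -0.09, adjusted p = 0.0897, limma), or 1.27-fold lower. Cow 2 fell most (-0.79) and cow 3 alone was higher (0.08).

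That call was close to the threshold. Without the cow as a block the adjusted p was 0.179 (limma). The call was also lost with normexp (-0.24, adjusted p = 0.165), with quantile normalization (0.121) and with the methods' t-test when paired (0.166). With 1 cow left out the change stayed between -0.43 and -0.26, and the call was kept only without cow 3 (adjusted p = 0.064, limma). It reached 0.223 without cow 2. The dimmer probe (A_73_P382761) gave a change of -0.17 (SE 0.11, 95% interval -0.41 to 0.08, adjusted p = 0.349, limma), also lowest in cow 2 (-0.55) and above 0 in cow 3 alone (0.16). The 2 probes thus gave the cows a similar order, and 1 of them passed the test.

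**Figure D2:**
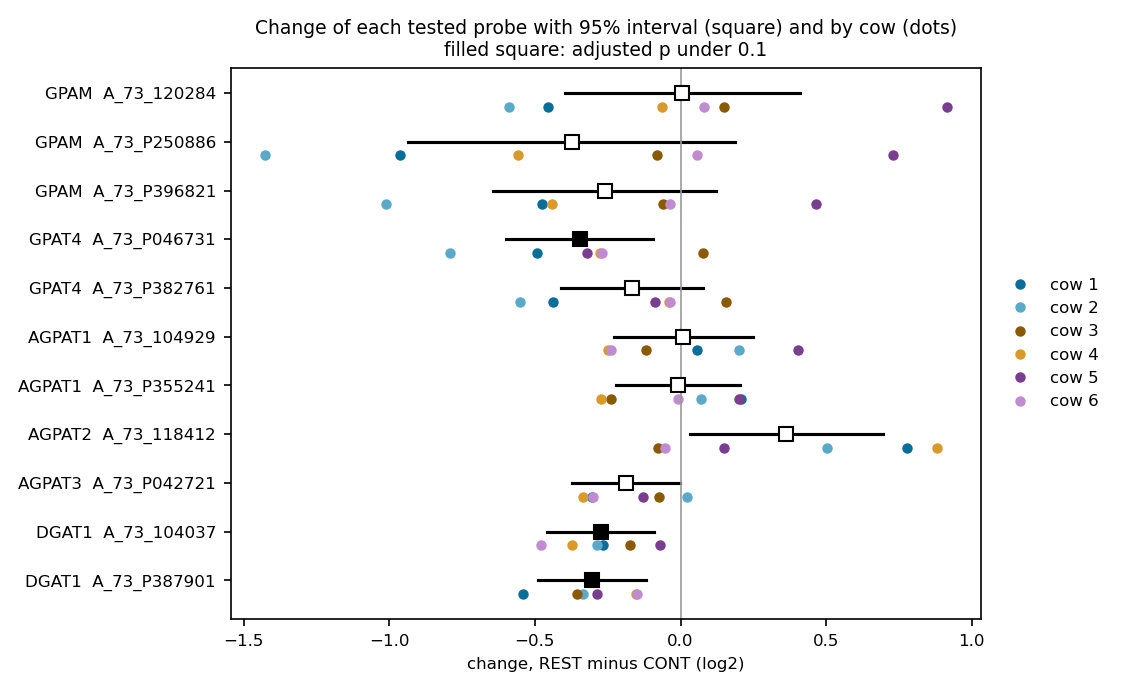
Change from CONT to REST in log2 units for each of the 11 tested probes (square with its 95% interval from the fit with the cow as a block, n = 6 cows) and for each cow (coloured dots). The filled squares, with adjusted p under 0.1, are 1 probe of GPAT4 (-0.35) and 2 of DGAT1 (-0.27 and -0.30), and the widest spread of dots belongs to GPAM, from -1.43 in cow 2 to 0.73 in cow 5 on A_73_P250886.

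The second acyl group, whose addition makes phosphatidic acid, is the work of the 3 AGPAT members. AGPAT1, the widely expressed form, had nearly the same mean level in both periods. On the probe of highest signal (A_73_P355241) the lowest, median and highest levels were 3.95, 4.17 and 4.72 in CONT and 3.85, 4.22 and 4.71 in REST, so that the ranges nearly coincided. The change was -0.01 (SE 0.09, 95% interval -0.22 to 0.21, adjusted p = 0.968, limma), with 3 cows lower and 3 higher. Its other probe gave a change of 0.01 (95% interval -0.23 to 0.25, adjusted p = 0.965). The sign carried no information here, as it turned positive on the first probe (0.05) with normexp background correction and with quantile normalization.

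AGPAT2, whose loss in people causes a near absence of body fat, was the tested member with the widest spread between cows in CONT. Its single probe (A_73_118412) had a lowest, median and highest level of 0.44, 1.82 and 2.82 in CONT and of 1.32, 2.16 and 2.77 in REST. The cow with the least signal in CONT, cow 4, was 0.88 higher in REST, and cow 1 was 0.78 higher, while cow 3 and cow 6, the brightest in CONT, differed by -0.08 and -0.05. The means were 1.76 ± 0.84 and 2.12 ± 0.53 (SD, n = 6). The change of 0.36 (SE 0.15, 95% interval 0.03 to 0.69) did not pass the test (adjusted p = 0.148, limma). It did so with normexp alone among the alternatives tried.

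AGPAT3, an enzyme of the endoplasmic reticulum and Golgi apparatus that can use polyunsaturated acyl groups, had 1 tested probe of 3 (A_73_P042721). Its lowest, median and highest levels were -1.83, -1.48 and -1.18 in CONT and -2.01, -1.72 and -1.27 in REST. Signal was lower in 5 of 6 cows, and 0.02 higher in cow 2. The change was -0.19 (SE 0.08, 95% interval -0.37 to -0.00, adjusted p = 0.181, limma), and none of the alternatives tried called it. The other 2 probes were well above background on all arrays of slides 1 and 2 but on 1 array at most of slide 3, and their mean changes within slides 1 and 2 were 0.20 and -0.13 for A_73_P053291 and -0.06 and 0.16 for A_73_P251566.

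The last acyl group is added by DGAT1 and DGAT2, which are unrelated in sequence. DGAT1 was lower in REST in every cow on both of its tested probes, while 9.64% of all tested probes were lower in all 6 cows and 7.94% higher. On the brighter (A_73_104037) the lowest, median and highest levels were -0.87, -0.63 and -0.27 in CONT and -1.15, -0.92 and -0.54 in REST. The lowest, the median and the highest level were each lower in REST, and the periods still overlapped. The mean went from -0.62 ± 0.23 to -0.89 ± 0.23 (SD, n = 6), a change of -0.27 (SE 0.08, 95% interval -0.46 to -0.09, adjusted p = 0.0726, limma), or 1.21-fold lower. The fall ranged from -0.07 in cow 5 to -0.48 in cow 6. Its mean was -0.28 on slide 1, -0.27 on slide 2 and -0.27 on slide 3.

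The other tested DGAT1 probe (A_73_P387901) went from -0.89 ± 0.29 to -1.19 ± 0.32 (SD, n = 6). Its lowest, median and highest levels were -1.28, -0.87 and -0.53 in CONT and -1.61, -1.21 and -0.68 in REST. The change was -0.30 (SE 0.08, 95% interval -0.49 to -0.12, adjusted p = 0.0563, limma), or 1.23-fold lower. Here cow 1 fell most (-0.54) and cows 4 and 6 least (-0.15 each), so the 2 probes shared the direction in each cow but not the order of the cows. Its mean change was -0.44 on slide 1, -0.25 on slide 2 and -0.22 on the dim slide 3.

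Both DGAT1 calls were lost without the cow as a block, with an adjusted p of 0.323 on A_73_104037 and 0.387 on A_73_P387901 (limma). The call of A_73_P387901 was also lost with normexp, where the change shrank to -0.18 (adjusted p = 0.122), and with the cow as a random effect (0.103). With 1 cow left out the changes stayed between -0.31 and -0.23 on A_73_104037 and between -0.33 and -0.26 on A_73_P387901. The first was then called only without cow 5 (adjusted p = 0.0665), the other without cow 5 (0.0831) and without cow 6 (0.082). The highest adjusted p was 0.18 for A_73_104037, without cow 4, and 0.149 for A_73_P387901, without cow 2. The third DGAT1 probe (A_73_P475548) was well above background on 3 CONT and 2 REST arrays and was not tested.

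DGAT2, which supplies most triglyceride in liver and adipose tissue, was near the limit of detection. Its brightest probe (A_73_118582) was well above background on 5 CONT and 4 REST arrays, and its 2 others on 3 and 3. On A_73_118582 the CONT levels of cows 1 to 6 were -3.53, -2.35, -3.70, -2.05, -3.42 and -0.96, and the REST levels were -3.81, -3.57, -3.55, -4.03, -4.41 and -3.12. The CONT values were therefore spread over more than 2 log2 units, with cows 2, 4 and 6 above cows 1 and 3, while the REST values of cows 1 to 4, the measured ones, lay between -4.03 and -3.55. Cow 5 was not well above background in either period on any of the 3 probes, so its place among the cows is not known. On A_73_P102136 and A_73_P319411 cow 6 was not well above background in either period, and among the CONT spots that were, cow 4 (-1.99 and -2.47) and cow 2 (-2.19 and -3.02) lay above cow 3 (-3.75 and -4.42).

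Differences between the periods could be measured on both sides in cows 1 to 4 only. On A_73_118582 they were -0.28 in cow 1, -1.22 in cow 2, 0.15 in cow 3 and -1.98 in cow 4. On A_73_P102136 they were -1.19 in cow 2, 0.02 in cow 3 and -1.36 in cow 4, and on A_73_P319411 they were 0.68 in cow 3 and -1.33 in cow 4. The signals of cows 2 and 4, and that of cow 1 on A_73_118582, were thus lower in REST wherever both arrays measured them. Those of cow 3 were not. The lowest signal that the scanner software took as well above background lay between -2.91 and -2.07 on the 4 arrays of slide 3. On all other arrays it lay between -4.70 and -4.17. Values of spots not well above background, as in cow 5 in both periods and cow 6 in REST on all 3 probes, are therefore not taken as measurements. In cow 6 A_73_118582 was measured in CONT (-0.96) but not in REST, where that lowest signal was -2.37. Within slides 1 and 2 the mean changes of A_73_118582 were -0.75 and -0.91. No mean change over the 6 cows is given for DGAT2, since it would average such values with measurements. With cow 5 left out, A_73_118582 entered the test through CONT alone, the period in which it was higher. That result is not read here, and it enters only the count of calls in the last section. Without slide 3 the probe A_73_118582 was well above background on all 8 arrays. Its change was then -0.83 (unadjusted p = 0.0434, adjusted p = 0.183, limma), which was not called.

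**Figure D3:**
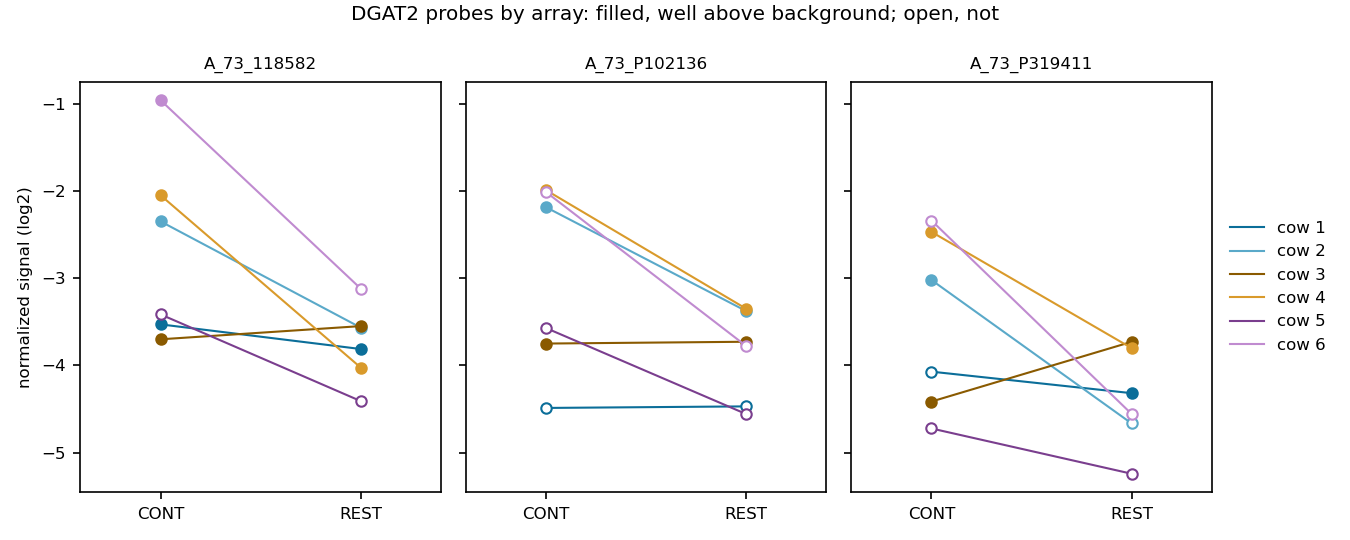
Normalized signal in log2 units of the 3 DGAT2 probes on the CONT and REST arrays of 6 cows, joined by cow, with filled points where the scanner software called the spot well above background and open points where it did not. Among filled points, cow 4 is lower in REST on all 3 probes (-1.98, -1.36 and -1.33), cow 2 on the first and second (-1.22 and -1.19) and cow 1 on the first (-0.28). Cow 3 is level or higher (0.15, 0.02 and 0.68).

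Because a biopsy holds several cell types, fewer cells of a type and less RNA per cell cannot be told apart, and markers are given beside these results. Of 10 luminal epithelial markers, 8 were well above background on all 12 arrays and KRT23 was so on none. Their summed level was 11.01 to 11.43 in CONT and 10.74 to 11.15 in REST, lower in 6 of 6 cows by 0.20 ± 0.08 (SD, n = 6). That sum follows the brightest genes, the milk proteins CSN3 (-0.27, adjusted p = 0.0794) and LALBA (-0.19, adjusted p = 0.144). Among the epithelial keratins, KRT7, KRT8 and KRT18 rose, KRT8 by 0.72 (adjusted p = 0.00875, limma), while KRT19 had 0.13 (adjusted p = 0.618). EPCAM had 0.33 (adjusted p = 0.113) and ELF5 -0.05 (adjusted p = 0.74, limma), and the median of the tested list was 0.23. Without the cow as a block none of these 4 calls was kept (adjusted p of 0.229 for CSN3, 0.169 for KRT7, 0.132 for KRT8 and 0.506 for KRT18), and CSN3 was at -0.06 with quantile normalization (adjusted p = 0.608). The part of epithelial content in the lower DGAT1 and GPAT4 signal was not tested.

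Adipocyte markers bear on DGAT2 and AGPAT2, which fat cells also express. Of 8 on the array, 2 were well above background on all arrays, FABP4 and CFD, and the adipocyte markers PLIN1 and RETN were so on none. CIDEC, LIPE and PCK1 were so on every array of cows 1 to 4, and LEP on those of cows 3 and 4. In cows 1 to 4 the change was -0.27, 0.11, 0.37 and -0.80 for CIDEC, -0.19, 0.19, 0.48 and 0.54 for LIPE, -0.13, 0.25, -0.55 and 0.08 for PCK1, and -0.31, -0.38, -0.08 and -0.55 for FABP4. For CFD it was 1.42, 0.94, 0.73 and 0.48, and for LEP -0.67 in cow 3 and -0.08 in cow 4. The summed level of the list was 7.23 to 7.77 in CONT and 6.72 to 7.30 in REST, lower in 6 of 6 cows by 0.28 ± 0.18 (SD, n = 6). It follows FABP4 (-0.35, adjusted p = 0.0455), which lactating epithelium also expresses, whereas CFD rose by 0.78 (adjusted p = 0.0152, limma). Both calls were lost without the cow as a block (0.195 and 0.109). The part of adipocytes in the DGAT2 values was not tested. The endothelial list was higher in 6 of 6 cows, by 0.29 ± 0.15. Of its 6 genes VWF alone was called, by 0.54 (adjusted p = 0.00727, and 0.0534 without the cow as a block, limma), and the others ranged from -0.15 for KDR to 0.32 for PECAM1, with 5 of 6 above 0. The summed levels of the fibroblast, leukocyte and myoepithelial lists gave changes of -0.13 ± 0.58, 0.13 ± 0.21 and -0.16 ± 0.23 (SD, n = 6). Within them 2 of 7 tested myoepithelial genes were called lower, CNN1 (-0.53, adjusted p = 0.0329) and ACTA2 (-0.37, adjusted p = 0.0873, limma). Another 4 of the 7 were above 0, and the median was 0.05. The only leukocyte gene called, of 7 tested, was CD3E, which rose (0.35, adjusted p = 0.0767, limma). All 3 calls were lost without the cow as a block. Of 6 fibroblast genes none was called and 2 had an unadjusted p under 0.05 (limma), with a median of -0.36.

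The genes around the 7 members were read from lists by function, with 1 probe per gene, the brightest tested. On that count 16.2% of 7932 genes were called, 9.1% lower and 7.12% higher. Among related acyltransferases that were not members, every call was upward. Of 14 on the array 9 were tested, 3 rose and none of the 9 fell (0 lower at an unadjusted p under 0.05, limma), with a median change of 0.20. GPAT3, the second glycerol-3-phosphate acyltransferase of the endoplasmic reticulum, rose from -0.04 ± 0.34 to 0.31 ± 0.33 (SD, n = 6), higher in 6 of 6 cows (change 0.35, SE 0.08, adjusted p = 0.0346, limma), and was called with each cow left out in turn. MBOAT1, which attaches acyl chains to lysophospholipids, rose by 0.29 (adjusted p = 0.0535, 6 of 6 cows). AGPAT4, of the same family as the AGPAT members, rose by 0.41 (adjusted p = 0.0948, 5 of 6 cows). Without the cow as a block none of these 3 was called (adjusted p of 0.348, 0.357 and 0.378), and with a cow left out MBOAT1 was called only without cow 5 or cow 6 and AGPAT4 only without cow 5. With normexp MBOAT1 was at 0.16 and AGPAT4 at 0.27, and neither was called.

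Upstream of the acyltransferases, falls of more than 1 log2 unit were found. Of 20 tested genes of fatty acid supply and activation, 11 fell and 1 rose, with a median of -0.38. Without the cow as a block 5 of these falls were called and the rise, in SLC27A1, was not (adjusted p = 0.189, limma). The largest falls were in ACSS2, which activates acetate for fatty acid synthesis (-1.60, SE 0.17, adjusted p = 0.00467), in LPL, which frees fatty acids from blood lipoproteins (-1.10, SE 0.16, adjusted p = 0.00875), and in ACSS1, the mitochondrial acetate enzyme (-0.89, SE 0.10, adjusted p = 0.0047, limma), each lower in 6 of 6 cows. Of 5 tested genes of glycerol 3-phosphate supply, 2 fell, GK or glycerol kinase (-0.75, adjusted p = 0.0207) and GPD1L, a relative of glycerol-3-phosphate dehydrogenase (-0.68, adjusted p = 0.0345, limma), and GPD1 had 0.23 (adjusted p = 0.29). The GPD1L call was lost without the cow as a block (0.102) and, at an adjusted p of up to 0.102 as well, when cow 2 or cow 4 was left out.

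Between the AGPAT and DGAT steps stand the phosphatidate phosphatases. LPIN1 fell from 0.38 ± 1.21 to -1.50 ± 0.74 (SD, n = 6), by 1.88 on the log2 scale (SE 0.20, adjusted p = 0.0047, limma), in 6 of 6 cows. With normexp the change was -1.24 (adjusted p = 0.00521), and the call was lost with the methods' t-test when not paired (0.146). None of the 4 other tested members of that list, PLPP1, PLPP2, PLPP3 and LPIN3, was called, with changes of -0.18, -0.00 and 0.10 for the 3 PLPP genes. LPIN3 missed the background limit on 1 CONT array and so entered the test through REST alone, and its value is not used here. Phosphatidic acid and diacylglycerol also go to phospholipids, and of 11 tested genes of that branch 2 fell. They were PCYT2 (-1.02, adjusted p = 0.0142) and PEMT (-0.57, adjusted p = 0.0184, limma), both of the phosphatidylethanolamine part of the branch, and the median was -0.09.

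**Figure D4:**
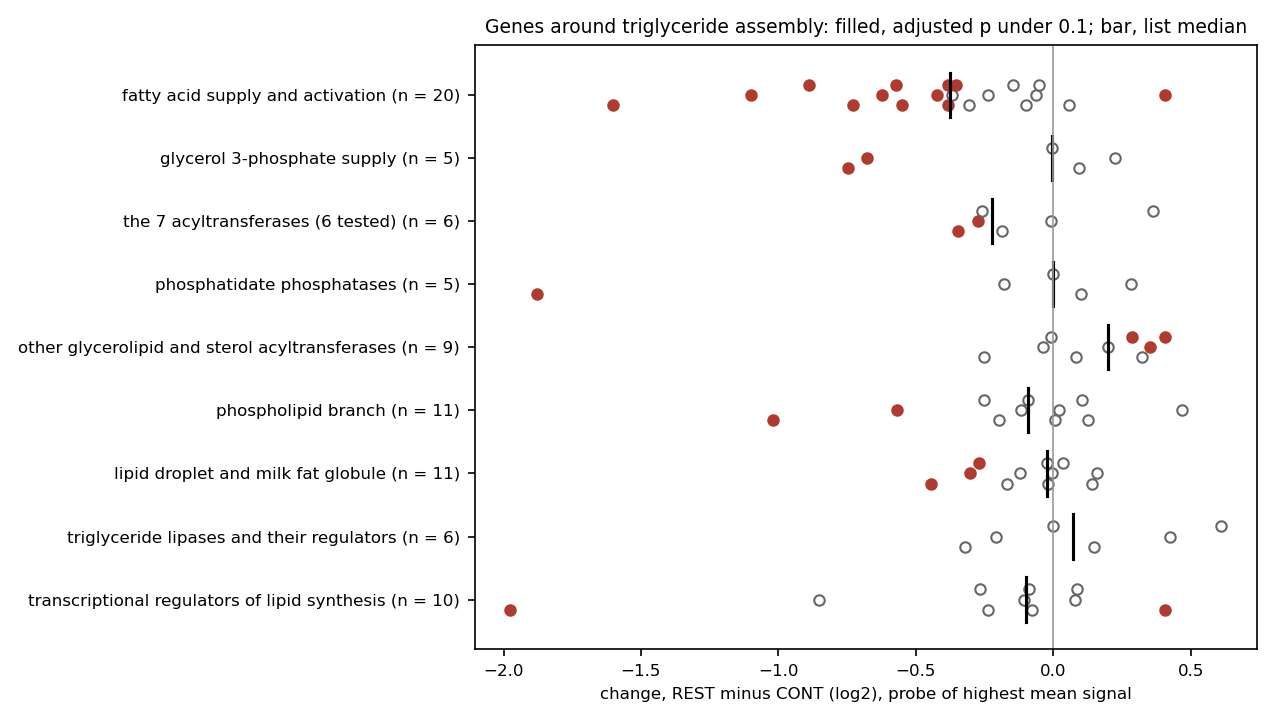
Change from CONT to REST in log2 units of single genes in lists around triglyceride assembly, 1 point per gene by its brightest tested probe, filled where the adjusted p was under 0.1, with a bar at the median of each list. Falls of more than 1 log2 unit belong to ACSS2, LPL, LPIN1, PCYT2 and INSIG1, while the 6 tested acyltransferase genes lie between -0.35 and 0.36. The phosphatidate phosphatase points and median include LPIN3, which entered the test through REST alone.

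Downstream, where triglyceride is packed into droplets and secreted, 3 of 11 tested genes fell, by less than 0.5. They were MFGE8, a coat protein of the milk fat globule (-0.45, adjusted p = 0.0796), BSCL2 or seipin, which organizes droplet formation (-0.30, adjusted p = 0.0941), and CIDEA, a droplet protein of the lactating gland (-0.27, adjusted p = 0.0803, limma). All 3 calls were lost without the cow as a block. With a cow left out, MFGE8 was called only without cow 3 or cow 5, BSCL2 only without cow 3 and CIDEA only without cow 5, and the highest adjusted p were 0.21, 0.217 and 0.2 (limma). With normexp BSCL2 was at -0.18 and MFGE8 at -0.37, neither called, while CIDEA was still called (-0.22). MFGE8 was also lost with quantile normalization (adjusted p = 0.121) and CIDEA with the cow as a random effect (0.603, limma). The median shift lost BSCL2 and CIDEA (0.105 each). The median of that list was -0.02. Of 6 tested lipases and lipase regulators none was called and 3 had an unadjusted p under 0.05 (limma), with changes from -0.32 for DDHD2 to 0.61 for PNPLA2, the main triglyceride lipase (adjusted p = 0.135, limma). Among 10 tested transcriptional regulators of lipid synthesis, INSIG1, which holds sterol regulatory proteins in the endoplasmic reticulum, fell by 1.98 (adjusted p = 0.00782) and NR1H3, a liver X receptor, rose by 0.41 (adjusted p = 0.0476, limma). INSIG1 was called with each cow left out and NR1H3 only without cow 3, 5 or 6 (adjusted p of up to 0.135). SREBF1 had -0.09 (adjusted p = 0.778) and PPARG -0.27 (adjusted p = 0.252).

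The genes whose levels followed each member most closely over the 12 arrays were found among 7337 genes well above background on all of them. These correlations are descriptive, since the 12 points share 6 cows and 3 slides. GPAM was most like OAT (r = 0.920) and UBL4A (0.918), and GPAT4 most like TXNL4A (0.891) and AHCYL2 (0.888). AGPAT1 was most like MAP4K2 (0.935) and SNX3 (0.913), AGPAT2 most like HPS1 (0.889) and HSPB1 (0.878), and AGPAT3 most like RWDD3 (0.944) and FKBP10 (0.886). DGAT1 was most like GPR21 (0.907) and PFDN1 (0.903). Of these 12 genes, AHCYL2 alone was called, lower by 0.66 (adjusted p = 0.0307, limma). No member was among the genes most like another: the members' levels correlated with each other at r of 0.72 at most, for GPAT4 and DGAT1, and at -0.57 at least, for AGPAT1 and AGPAT3.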

How the data were processed

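Total RNA was amplified, labelled with Cy3 and hybridised to 12 bovine 44K arrays on 3 slides. The authors scanned them and extracted spots with Agilent Feature Extraction 11. The deposited files hold processed spot intensities on a linear scale, background-subtracted by that software and not scaled between arrays. The deposited series table holds the same intensities. Slide 3 was dim: the 75th percentile of its intensities was 73.2 to 117 with 41.9 to 48.0% of spots well above background, against 252 to 390.0 and 61.8 to 67.9% elsewhere. The number of arrays limits the precision.

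Here intensities were log2-transformed, marked spots (1 to 13 per array) left out, repeat spots (50 probes) averaged, and the 75th percentile of non-control probes subtracted. Probes well above background on every array of at least 1 group were tested with limma 3.58.1 (R 4.3.3, lmFit and eBayes), the cow as a fixed block, two-sided, with Benjamini-Hochberg adjustment over all 19406 tested probes and a threshold of 0.1. The labels give each cow an array in both periods. Deviations from the period means correlated at 0.356 to 0.574 for arrays of 1 cow and at -0.326 to 0.134 for arrays of different cows. The files were read with Python 3.11.15 and pandas 2.3.3, and matplotlib 3.10.9 drew the plots. The fit was tested on simulated data. Alternatives covered the block, the slide, each cow, the normalization (normexp from the median spot signal with an offset of 50, quantile, median), the filter, marked spots, eBayes options and the methods' t-test.

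Named genes were the 7 members, at most 3 called genes of each list by size of change, and the 2 genes most like each member. Genes outside that rule (the cell type markers, GPD1, PLPP1, PLPP2, PLPP3, LPIN3, DDHD2, PNPLA2, SREBF1, PPARG, SLC27A1) were named after their values were seen. Members and lists were chosen with earlier results of these data known. Symbols came from a RefSeq gene table (62.2% of probes). Sequences and positions are not reported here, since the array grid refers to another assembly than that table.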

Additional observations from a re-analysis of the deposited data

Results flagged for a closer look

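One array lay far from the others of its period among the tested acyltransferase probes. On GPAM probe A_73_P250886 the CONT level of cow 5 was 2.68, while the other 5 cows lay between 3.20 and 3.50, so that the gap to the nearest was 0.636 of the whole range, just over Dixon's 95% critical value. The cow 5 array in CONT was on the dim slide 3. Chance flags about 1 in 20 groups, and among the 22 groups of values looked at here, 1 was flagged beside 1.1 expected.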

How the results depend on the processing

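Of the 11 tested member probes 3 were called with the cow as a block. The count was 0 with no replicate block, with the slide as a block in place of the cow, without slide 3, with no filter on dim probes, and with the methods' t-test when not paired, an alternative chosen after seeing the data. In these 5 settings 1 of 11, 3 of 11, 6 of 14, 6 of 17 and 1 of 11 tested member probes had an unadjusted p under 0.05. Those with no filter include all 3 dim DGAT2 probes, and those without slide 3 include 1 of them. Shares over all probes are not given for these unadjusted counts. The count called was 0 to 3 with 1 cow left out (0 without cow 1, 2 or 4). The 3 without cow 5 include a DGAT2 probe that entered the test only through CONT, where it was higher. It was 2 with normexp (1 lower, and AGPAT2 higher), and 2, both lower, with quantile normalization, with the cow as a random effect and with the methods' t-test when paired. Over all probes 3101 were called, 831 with no replicate block, 1901 with the slide as a block, 2775 of 26905 without slide 3 and 384 of 43653 with no filter. The count was 1845 with the methods' t-test when paired, 732 when not paired, and 1053 to 3235 with 1 cow left out. With no replicate block the called genes went from 3 to 0 among other acyltransferases and in the lipid droplet list, from 2 to 1 in glycerol 3-phosphate supply and from 12 to 5 in fatty acid supply, and among the marker lists from 4 to 0 for luminal epithelium, 2 to 0 each for myoepithelium and adipocytes and 1 to 0 for leukocytes. The phosphatase, phospholipid, lipase, regulator, endothelial and fibroblast lists had equal counts in both fits. With no filter more probes entered the adjustment, and without a cow or a slide fewer arrays were used. The cause of the other shifts was not tested. The change of AGPAT1, near 0, turned to 0.0516 with normexp and with quantile normalization, and lay between -0.0507 and 0.0458 with 1 cow left out (positive without cow 3 or cow 4). No other member's brightest tested probe changed direction under the alternatives tried. Slide 3 was dim, which limits DGAT2 and the untested AGPAT3 and DGAT1 probes there.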
